A study of Mus musculus with 6 samples.

Results

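The ABC transporters described here are 10 genes of the ABCB, ABCC and ABCG subfamilies, Abcb6, Abcb9, Abcc1, Abcc3, Abcc9, Abcg2, Abcg5, Abcg8, Tap1 and Tap2, in the mouse lateral ventricular choroid plexus at embryonic day 15 (E15) and in the adult. They were chosen by symbol, as the transcript clusters (the exon probe sets that together measure 1 gene) carrying a listed name in a gene-level table or a splicing index table. Each gene had 1 cluster, which carried no other symbol, so that 10 clusters were found among the 3956 of either table. Of these, 7 stood in the gene-level table of 1805 clusters and 9 in the splicing index table of 3369, with 6 in both. Abcc3, Abcc9 and Abcg2 stood in the splicing index table alone, and Abcc1 in the gene-level table alone. The gene-level table was selected by a filter on expression, a corrected unpaired test and a 2-fold threshold. Membership of it is therefore itself a choice by outcome.

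The animals were healthy, untreated Swiss Webster mice, and the question was how the plexus of the embryo differs from that of the adult. Labels give 3 arrays of E15 plexus, each from a pool of 30 embryos of mixed sex, and 3 of adult plexus, each from a pool of 10 females. A supplementary checklist gives other pool sizes, and the age of the adults differs between that checklist and the methods. Sex and age cannot be told apart, since all adults were female and the embryos were of both sexes. The tissue was excised whole, with vessels, stroma and blood beside the epithelium, and its RNA was amplified in 2 rounds. In such bulk tissue, fewer cells of a type and less RNA per cell cannot be told apart. Of 21 markers of choroid plexus epithelium, 10 had an entry, in 11 clusters, 10 of them higher in the adult, with Prlr, Kl and F5 among them. The deposited log2 values hold 1 merged number per age and for most clusters lie on either side of 0, so that the 2 values add up to a sum whose median size was 0.081 over either table. Abcc9 and Abcg2 are exceptions to the small sum, at -0.84 and -0.62, though their values also lie on either side of 0. The deposited values therefore carry the difference between ages but no level, no replicate spread and no test, and genes cannot be ranked by abundance. The number of arrays limits the precision of every value.

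ABC transporters use the binding and hydrolysis of ATP to move lipids, peptides, heme, drugs and conjugated metabolites across membranes. Several ABCB, ABCC and ABCG proteins export compounds from cells of the blood-brain and blood-cerebrospinal fluid barriers, and in choroid plexus epithelium ABCC1 (MRP1) lies in the basolateral membrane, facing the blood. Other members work inside the cell, such as the transporter associated with antigen processing, a dimer of TAP1 and TAP2 that carries peptides into the endoplasmic reticulum for loading onto MHC class I, and some are no exporters at all, such as ABCC9, a regulatory subunit of potassium channels.

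Of the 10 genes, 6 were higher at E15 and 4 in the adult by their merged values, where 54.1% of the clusters of either table were higher at E15. At least 2-fold differences were seen for 8, where 47.3% of the clusters of either table reached that size. All but Abcc9 are in the gene-level table, which holds only such clusters, so the count largely follows from that selection. Abcc9 did not pass the whole of that selection. Of these 8, 4 were higher at E15 (Abcg5, Abcg8, Abcc9 and Abcb6; 24.4% of all clusters) and 4 in the adult (Tap2, Abcb9, Tap1 and Abcc1; 22.9%). With each column first centred on its median over the clusters of either table all 8 were past 2-fold. Centred instead on the gene-level table, or on the splicing index table for clusters found there alone, 6 were, 2 of them higher at E15. Abcg8 and Abcb6 then fell short, and the median of the gene-level table is set by its 2-fold selection. Both genes are also in the splicing index table, whose smaller shift would leave them past 2-fold. The median size of the difference was 1.44 on the log2 scale over the 10 genes, against 0.95 over either table and 1.44 over the gene-level table. Nearest to the 2-fold line were Abcc1, past it at 2.28-fold, and Abcc3, short of it at 1.96-fold.

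**Figure D1:**
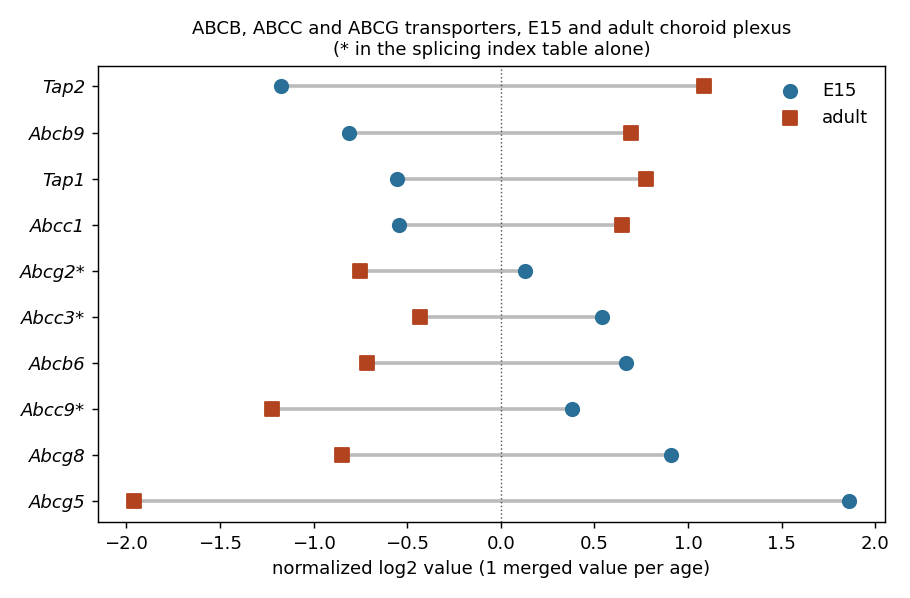
Merged normalized log2 value at E15 (circles) and in the adult (squares) for each of the 10 transporters, with 1 value per age and no error. Most pairs lie evenly about 0, and those of Abcc9 and Abcg2 lie toward negative values. The widest gap is that of Abcg5, from 1.86 at E15 to -1.96 in the adult, and the gaps of Tap2, Abcb9, Tap1 and Abcc1 run the other way.

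Abcg5 and Abcg8 encode the partners of a dimer that pumps plant sterols and cholesterol out of cells, known chiefly from the bile canaliculus of the liver and the brush border of the gut. Abcg5 (cluster 6857809) had a log2 value of 1.86 at E15 and -1.96 in the adult, a difference of -3.82, or 14.1-fold higher at E15. It ranked 32 by size of difference among the 3956 clusters and 17 among the 925 clusters of the gene-level table with the higher value at E15 (51.2% of that table). Abcg8 (6852753) had values of 0.91 at E15 and -0.85 in the adult, a difference of -1.76, or 3.38-fold. Centring on the medians of either table made this -1.60, and on those of the gene-level table -0.90. Both partners were thus higher at E15, with Abcg5 apart by the wider margin. The difference of each concerns that gene alone, and the centred values do not show whether both transcripts were present in like amounts.

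The 2 genes start back to back. The sequence between their annotated starts is shown because it is the stretch that both promoters share. In RefSeq (GRCm38.p6) the starts lie 110 bases apart on opposite strands, and the 109 bases between them, read on the plus strand at chr17:84683012-84683120, were 45.9% G or C. Capitals mark motif matches on either strand, which here are 2 GATA boxes (AGATAA, here read as TTATCT) and 1 TATA box (TATAAA, here read as TTTATA).

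Abcg5-Abcg8: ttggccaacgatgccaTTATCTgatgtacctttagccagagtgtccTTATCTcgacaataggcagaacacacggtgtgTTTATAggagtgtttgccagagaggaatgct

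The GATA box was added to the motifs after this sequence had been seen. It occurred in 11.2% of the 32851 RefSeq mouse promoter windows of 300 bases (250 before and 50 after a start), and the TATA box in 13.6%. A further GATA box lay outside the stretch between the starts, so that the window of Abcg5 and the nearer of the 2 windows of Abcg8 held 3 each. These windows overlap by 209 bases and are not separate observations. No binding was measured here, and a match describes letters only.

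Of a list of 30 genes for sterol transport and its regulation, 9 had an entry, and all 9 clusters were higher in the adult, 4 of them at least 2-fold, with a median difference of 0.50. Over either table the median was -0.16, and 22.9% of clusters were at least 2-fold higher in the adult. Insig1, a sterol-sensing regulator of cholesterol synthesis, differed by 1.38, Npc2, which carries cholesterol in lysosomes, by 1.14, and Soat1, which esterifies cholesterol, by 1.14. Srebf1, a transcription factor of lipid synthesis, and Lrp8, an apolipoprotein E receptor, differed by 0.50 and 0.39. Abcg1, the cholesterol exporter of the same subfamily, and the sterol sensors Nr1h2 and Nr1h3 had no entry in either table, so nothing is known here of their levels.

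Abcg2, or breast cancer resistance protein, exports drugs, urate and porphyrins and is found in brain capillary endothelium and in blood cell precursors. Its cluster (6946554) had values of 0.13 at E15 and -0.75 in the adult, a difference of -0.88, or 1.84-fold higher at E15, short of 2-fold. Its 2 values summed to -0.62, and 1.39% of the clusters of either table had a sum larger in size, where the median size was 0.081. The values of Abcg2 were thus off-centre, with the adult value far below 0 and the E15 value close to it. Beside this result, all 7 endothelial clusters (of 13 listed genes, 7 with an entry) were higher at E15, with a median of -1.10 and Cdh5 at -2.10, Pecam1 at -1.48 and Kdr at -1.23. All 11 erythroid clusters (12 of 19 genes) were also higher at E15, with a median of -2.25 and the embryonic globin Hbb-y at -5.55. Of all clusters of either table, 54.1% were higher at E15, with a median of -0.16. The part of endothelial and erythroid cells in the result was not tested.

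Tap1, Tap2 and Abcb9 are the peptide transporters of the group, and all 3 were higher in the adult, as were 48.8% of the clusters of the gene-level table. Tap2 (6850022) had values of -1.17 at E15 and 1.08 in the adult, a difference of 2.26, or 4.78-fold. Tap1 (6850019), its obligate partner, had values of -0.55 and 0.77, a difference of 1.33, or 2.51-fold. Abcb9 (6941857), a lysosomal peptide transporter related to both, had values of -0.81 and 0.69, a difference of 1.51, or 2.84-fold. Centring on the medians of either table gave 2.41 for Tap2, 1.48 for Tap1 and 1.66 for Abcb9. On those of the gene-level table they were 3.11, 2.18 and 2.36. Tap2 stood furthest from equality of the 3 in each case. In the ontology columns of the tables the term oligopeptide transport was held by 4 clusters, these 3 and Slc15a2, a proton-coupled peptide carrier that went the other way at -0.59. The same 3 genes carried the term endoplasmic reticulum, which was held by 167 clusters, 115 of them higher in the adult. Abcb9 also carried the term lysosome, where 37 of 39 clusters were higher in the adult.

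Tap1 lies head to head with Psmb9, which encodes a subunit of the immunoproteasome, the enzyme that cuts peptides for the transporter, and Psmb8 and Tap2 follow within the next 3 genes. The stretch between the starts of Psmb9 and Tap1 is shown because a peptide-cutting and a peptide-carrying gene share it. Its 225 bases, on the plus strand at chr17:34187331-34187555 of GRCm38.p6, were 61.3% G or C and are given by RefSeq. Capitals mark 1 CCAAT box (CCAAT, found in 37.4% of all windows) and 1 GC box (GGGCGG, here read as CCGCCC, found in 35.7%).

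Psmb9-Tap1: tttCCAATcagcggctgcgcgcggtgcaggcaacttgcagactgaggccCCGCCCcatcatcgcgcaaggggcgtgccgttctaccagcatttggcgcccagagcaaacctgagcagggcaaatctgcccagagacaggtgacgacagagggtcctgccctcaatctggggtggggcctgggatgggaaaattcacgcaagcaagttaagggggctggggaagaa

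Neither Psmb9 nor Psmb8 had an entry in the tables, so whether they move with Tap1 was not seen. No match was found in the Tap1 window to an interferon response core (in 3.44% of all windows) or a STAT core (TTCNNNGAA, in 8.30%), and these letters say nothing of the factors themselves.

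**Figure D2:**
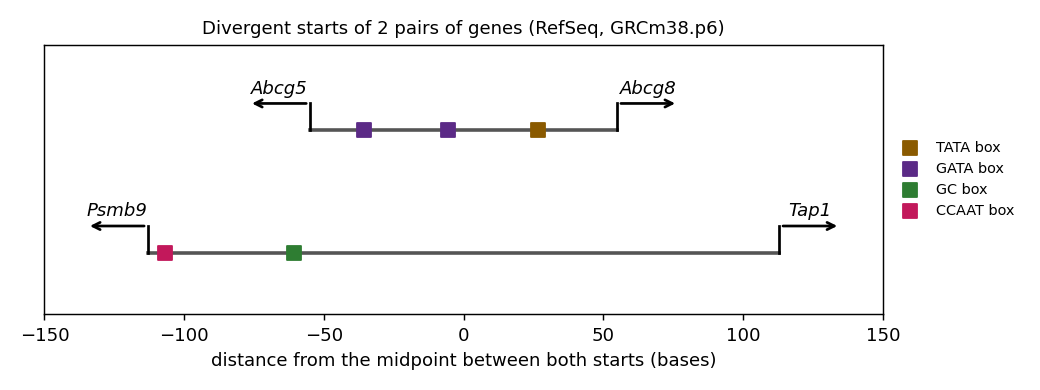
Distance in bases from the midpoint between the annotated starts of Abcg5 and Abcg8 (110 apart) and of Psmb9 and Tap1 (226 apart), with arrows in the direction of transcription and squares at motif matches between the starts. The upper pair has 2 GATA boxes and 1 TATA box and the lower pair 1 CCAAT box and 1 GC box.

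Of 31 listed genes for loading MHC class I and its regulation 13 had an entry, in 10 clusters, and 8 of these were higher in the adult, 5 of them at least 2-fold, with a median of 0.83. Of all clusters of either table, 54.1% were higher at E15, 22.9% were at least 2-fold higher in the adult, and their median was -0.16. The 2 clusters higher at E15 were the loading chaperones Canx, at -0.24, and Pdia3, at -0.07. The cluster shared by H2-T10 and H2-T22 differed by 2.64 and that shared by H2-D1, H2-Q2, H2-L and H2-K1, which includes the classical class I heavy chains, by 2.51. The probes of such near-identical genes cannot be assigned to a single copy. Psme2, a proteasome activator that shares its cluster with a pseudogene, differed by 1.53. Tapbp, or tapasin, which ties class I to the transporter, and its relative Tapbpl each differed by 1.00. Beside this, the MHC class II genes Cd74 and H2-Aa differed by 3.16 and 2.53, whereas the macrophage genes Mrc1 and Fcer1g differed by -2.36 and -1.36. That list had 10 clusters, 6 higher at E15 and 4 in the adult, with a median of -0.34. The part of such cells in the values of Tap1 and Tap2 was not tested.

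Abcb6 carries porphyrins and has been placed in mitochondria, endosomes and the plasma membrane of red cells. Its cluster (6759778) had values of 0.67 at E15 and -0.71 in the adult, a difference of -1.38, or 2.61-fold higher at E15. Centring on the medians of either table made this -1.23, and on those of the gene-level table -0.53. This was opposite to the majority of the 197 clusters with the ontology term mitochondrion, of which 147 were higher in the adult. Of 28 listed genes of heme synthesis and of heme or iron handling, 10 had an entry, 5 higher at E15 and 5 in the adult, with 3 at least 2-fold on each side and a median of -0.18. This was near the background of either table, where 24.4% were at least 2-fold higher at E15 and 22.9% in the adult, with a median of -0.16. Higher at E15 were Slc40a1, the iron exporter ferroportin, at -3.26, Alas2, the erythroid enzyme of the first step of heme synthesis, at -2.25, and the mitochondrial iron importer Slc25a37 at -1.29. Higher in the adult were Alas1, which catalyses that step in other cells, at 2.17, the folate and heme carrier Slc46a1 at 1.69, and the ferrireductase Steap3 at 1.23. The 11 erythroid clusters, all higher at E15, include Hbb-y, Hbb-b1 with Hbb-b2 at -3.19 and Hba-x at -2.70, and their part in the value of Abcb6 was not tested.

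Abcc1 and Abcc3 export glutathione, glucuronide and sulfate conjugates, and they lay on opposite sides. Abcc1 (6839607) had values of -0.54 at E15 and 0.65 in the adult, a difference of 1.19, or 2.28-fold higher in the adult. Abcc3 (6790944), known from the basolateral membrane of liver and gut cells, had values of 0.54 and -0.43, a difference of -0.97, or 1.96-fold higher at E15. Of 32 genes for glutathione and conjugation 3 had an entry. The glutathione transferase genes Gstk1 and Gstm2 differed by 1.69 and 1.11, and a cluster shared by several glucuronosyltransferase genes of the Ugt1a locus, Ugt1a6a among them, was just past 2-fold higher at E15. Of 23 drug and organic anion carriers known from the plexus 7 had an entry, 5 of them higher in the adult, with a median of 0.52, where 54.1% of the clusters of either table were higher at E15 and the median was -0.16. The thyroid hormone carrier Slco1c1 differed by 2.38, the organic anion carrier Slco1a5 by 1.75 and the carnitine carrier Slc22a5 by 1.59, whereas the organic anion exchanger Slc22a6 differed by -1.54. The exporters Abcb1a, Abcb1b, Abcc2, Abcc4, Abcc5, Abcc6 and Abcc10 of that list had no entry.

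Abcc9 encodes SUR2, which joins a pore subunit to form the ATP-sensitive potassium channels of smooth muscle and pericytes. Its cluster (6958063) had values of 0.38 at E15 and -1.22 in the adult, a difference of -1.60, or 3.04-fold higher at E15. Like those of Abcg2 these values were off-centre, with a sum of -0.84, and 0.683% of the clusters of either table had a sum larger in size. It was 1 of 67 clusters past 2-fold by merged values among the 2151 found only in the splicing index table, 42 of the 67 being higher at E15. The gene-level table, from which Abcc9 is absent, also required a filter on expression and a corrected test. Which of these left Abcc9 out is not known. Kcnj8, which encodes the pore subunit Kir6.1 and is the adjacent protein-coding gene in RefSeq, differed by -1.24, or 2.37-fold higher at E15. Centring on the medians of the gene-level table made this -0.39, short of 2-fold. Kcnj11 and Abcc8, the corresponding pair of the pancreatic beta cell, had no entry. Of 14 markers of pericytes and smooth muscle 6 had an entry, 4 higher at E15 and 2 in the adult, with a median of -1.11. Mcam differed by -1.81 and Pdgfrb by -1.46, and Vtn by 1.34. Kcnj8 belongs to that list too, and the part of these cells in the value of Abcc9 was not tested. All 11 clusters of mesenchyme and matrix were also higher at E15, with a median of -1.58 and Col3a1 at -3.14.

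The 20 ABC clusters of either table were grouped into subfamilies by symbol, so a member named otherwise, apart from Tap1 and Tap2, is not counted. All 4 ABCG clusters were higher at E15, with a median of -1.32, where 54.1% of all clusters were higher at E15. The fourth, Abcg4 (6995066), a sterol transporter of neurons, differed by -0.28, or 1.22-fold. Of the 4 ABCB clusters 3 were higher in the adult, with a median of 1.42, and of the 3 ABCC clusters 1, with a median of -0.97. All 8 ABCA clusters, which encode mainly lipid transporters, were higher in the adult, from 0.12 for Abca1 to 3.28 for Abca4, with a median of 1.15. Abca7 at 2.18, Abca2 at 1.80 and Abca5 at 1.34 were also past 2-fold. The difference between subfamilies was not tested, since genes are not replicates. By symbol (Abcb, Abcc or Abcg with a number, and Tap1 and Tap2), RefSeq holds 28 protein-coding mouse genes, and 11 had an entry, the 10 genes described here and Abcg4. The other 17 were not analysed here, and an absent entry does not show an equal level.

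**Figure D3:**
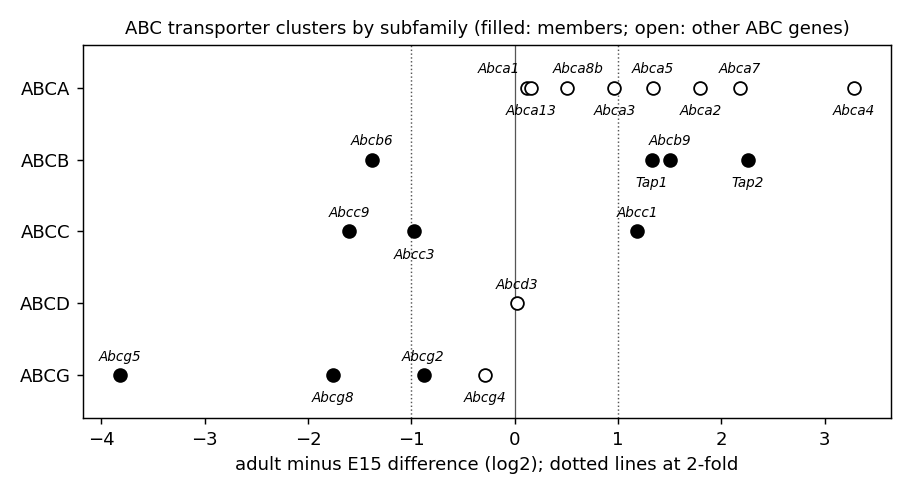
Adult minus E15 difference (log2) of each of the 20 ABC clusters, by subfamily, with the 10 transporters described here filled and other ABC genes open, and dotted lines at 2-fold. The ABCG clusters lie left of 0, from -3.82 for Abcg5 to -0.28 for Abcg4, and the ABCA clusters right of it, up to 3.28.

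The splicing index is a signed score, adult against E15, for exons that differ between the ages by more or less than their cluster does. Its scale is not stated, and the table holds indices of at least 0.50 in size. Of the 10 transporters 9 had an index, based on 13 to 42 probe sets, where the median of the table was 13. Their median size was 1.19 against 0.90 in the table, and 8 of the 9 lay above that median, Abcb6 only just (0.9026 against 0.9022). Most of the 9 were at least 2-fold apart, against 1285 of the 3369 clusters of the table. Whether their index sizes exceed those of clusters with like differences was not tested. Abcg5 had the highest index in size of all 3369 clusters, at 3.94 over 14 probe sets. This was close in size to its difference of -3.82 and opposite in sign. Likewise the index of Abcg8 was close in size to its difference of -1.76. The ranks of both are therefore not separate from the size of their differences. Abcg8, at 1.93 over 16 probe sets, and Abcb9, at -1.84 over 14, ranked 198 and 230, so that 5.85% and 6.80% of the table were larger. The sterol dimer and the lysosomal peptide transporter therefore stood highest among the 9.

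The others lay nearer the middle of the table. Abcg2 had an index of -1.22 over 18 probe sets, Tap2 of -1.19 over 13, Abcc9 of 1.02 over 42 and Abcc3 of -0.93 over 34. Abcb6, at 0.90 over 21 probe sets, stood at rank 1684, the middle of the table, and Tap1, at -0.69 over 14, below it, with 76.6% of indices larger. Tap2 thus exceeded its partner Tap1 on both measures, as Abcg5 did Abcg8, but the measures are not separate evidence.

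The sign of the index was opposite to that of the difference for 7 of the 9, against 62.5% in the table. These 7 are the transporters with an index that were at least 2-fold apart, for which the share in the table was 77.5%. In Abcc3 and Abcg2, both under 2-fold, the index had the same sign as the difference, where 53.3% of such clusters had opposite signs. Index and difference come from the same arrays and are not separate evidence. The deposited tables do not name the exons behind an index, so no isoform is given.

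**Figure D4:**
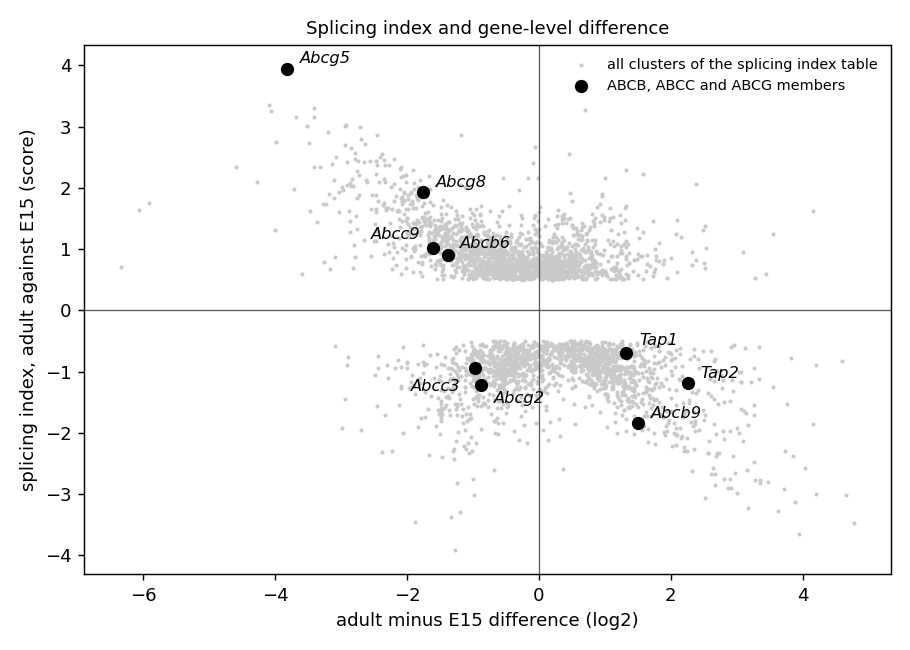
Splicing index (a score, adult against E15) against the adult minus E15 difference (log2) for the 3369 clusters of the splicing index table (grey) and the 9 transporters in it (black). Abcg5 stands at the upper left with an index of 3.94, while Abcc3 and Abcg2 lie in the lower left, where index and difference have the same sign.

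Among the RefSeq promoter windows 7 of the 10 genes were found, in 10 windows, and Abcc1, Abcc3 and Tap2 were not. The window of Abcb9 held 6 GC boxes and that of Abcb6 held 2 GC boxes, 1 CCAAT box and 2 TATA boxes. None of the 10 windows held an E-box (CACGTG, in 7.15% of all windows), an interferon response core, a STAT core or the DR4 repeat (in 0.0152%), a motif known from sterol-sensing receptors.

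**Figure D5:**
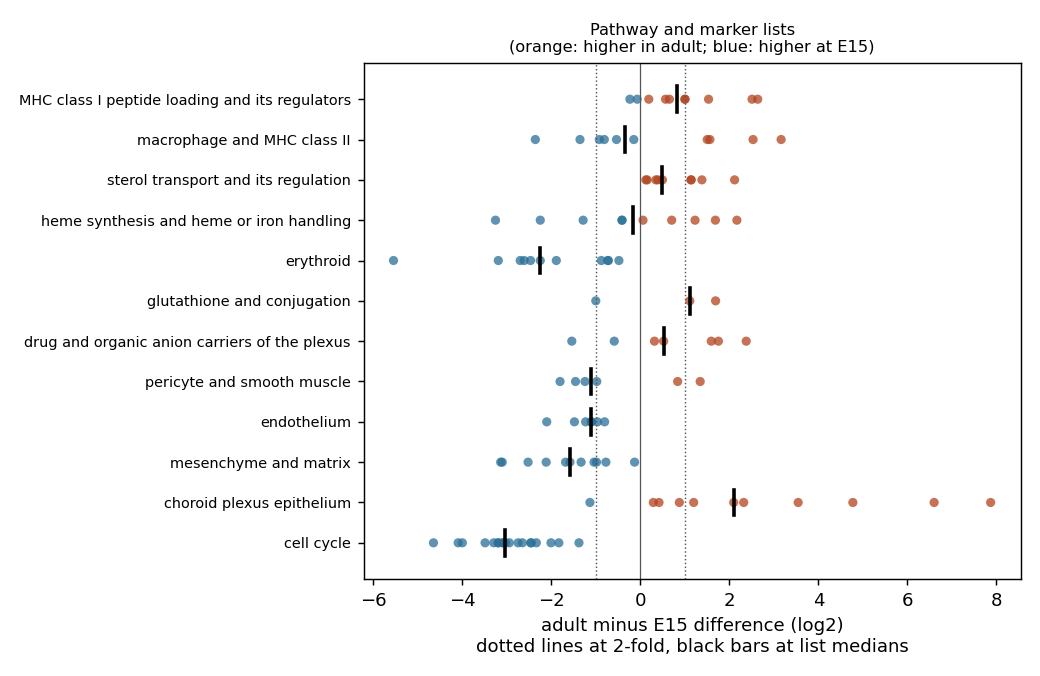
Adult minus E15 difference (log2) of each cluster of the pathway and cell type lists, with a black bar at each list's median and dotted lines at 2-fold. All clusters of the sterol list lie right of 0, those of the heme list lie on both sides, and all erythroid, endothelial and cell cycle clusters lie left of 0.

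Abcg5, Abcg8, Abcg2, Abcb6, Abcc3 and Abcc9 lay on the side of the cell cycle list, whose 19 clusters were all higher at E15, with a median of -3.03. Tap1, Tap2, Abcb9 and Abcc1 lay on the side of the epithelial list, whose median was 2.10. Both placements only restate the sign of each difference, where 54.1% of the clusters of either table were higher at E15. The erythroid, endothelial and mesenchyme lists also lay on the E15 side and the sterol list on the adult side. A list of neurons and neural progenitors had 9 clusters, 4 higher at E15 and 5 in the adult, with Camk2a at 2.66, Dcx at -2.29, Syt1 at 1.97 and Sox11 at -1.88. The part of these cells in the values of the transporters was not tested.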

How the data were processed

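RNA of 3 E15 and 3 adult pools was measured on Affymetrix mouse exon arrays. The authors made the deposited log2 values with Affymetrix Power Tools and RMA, a filter on expression and Benjamini-Hochberg correction of an unpaired test, and merged the arrays of each age. They derived the splicing index, a score with a cut-off of 0.5, from exon-level values before it was deposited. Versions and genome build are not given in the sources used here. Columns with the authors' fold changes and their direction were not used. The tables hold 0 columns of a single array, so samples were grouped by label but no test was run.

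Each difference is the adult value less that of E15, and its fold is 2 raised to the size of the difference. Genes were matched by whole symbol. The transporters and lists were chosen with earlier results of these data known. From each pathway list up to 6 genes and from each marker list up to 4 were named by size of difference, with all transporters and up to 5 other ABC genes per table. Genes without an entry were named for their role, and Abca1, Abcg4, Canx, Pdia3 and Fcer1g after their values were seen. Some genes that this rule names are not reported here. Neighbours and promoters came from RefSeq (GRCm38.p6). Counting was tested on simulated data. Python 3.11.15, pandas 2.3.3, numpy 2.4.6 and matplotlib 3.10.9 were used.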

Additional observations from a re-analysis of the deposited data

How the results depend on the processing

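Over 29 values, 106 alternatives were computed, 0 of which turned a direction. Many could not have done so. Each transporter has 1 cluster, so choosing its largest cluster or the mean over clusters returns the same value. Its values in the splicing index table are also the same numbers, and counts were not assessed for direction. Re-centring each age's values on the median of their table adds 0.85 to differences of the gene-level table, which holds no cluster near 0, and 0.16 in the splicing index table. The first shift follows from the 2-fold selection of that table. Differences then became -0.53 for Abcb6, -0.90 for Abcg8, 2.36 for Abcb9, 2.04 for Abcc1 and 2.18 for Tap1, and 6 transporters were then past 2-fold, 2 of them higher at E15 (Abcg5 and Abcc9). Abcb6, Abcg8, Abcb9 and Tap1 are also in the splicing index table, where the shift of 0.16 would leave each past 2-fold. Centring over either table instead, an alternative chosen after seeing the data, left 8 past 2-fold, 4 of them higher at E15, with Abcb6 at -1.23 and Abcg8 at -1.60. Under the first centring list medians became 1.34 for MHC class I, -0.011 for heme, 1.97 for glutathione, -0.39 for the potassium channel, -1.40 for erythroid, -0.50 for pericytes, -0.83 for mesenchyme and -0.18 for macrophages and MHC class II. A 3-fold threshold left 4 transporters and a 1.5-fold threshold 10. The mean in place of the median gave 0.81 for sterol and 0.60 for glutathione, and leaving out shared clusters gave -0.67 for macrophages and MHC class II.

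No paired analysis was possible because the tables hold no column of a single array. For the same reason no replicate was left out. Centred values hold no signal over background. Taking differences from the authors' fold change column was not run, since that column holds their own comparison. Clusters outside both tables were not analysed here, and shares describe these selected lists, not the array.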
